A study of Mus musculus with 17 samples.

Results

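The 9 genes described here are the core of the BCL2 family and of the p53 axis in mouse, namely Bcl2, Bcl2l1, Mcl1, Bax, Bcl2l11, Bbc3, Pmaip1, Trp53 and Mdm2, out of 21887 protein-coding genes. Their surroundings were read in ChIP-seq peaks from the mouse myeloid progenitor line 416B. The first antibody was against RUNX1, a transcription factor of blood cell development, and the other against CHD7, an ATPase that moves nucleosomes. A site is a stretch where peaks of the 8 lists of an antibody overlap by at least 1 bp, and it belongs to a gene where it overlaps the gene body or the 50 kb on either side. By this rule the 9 genes held 55 of 21664 RUNX1 sites and 133 of 85223 CHD7 sites.

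All cells carried the tetracycline silencer and transactivator. Those named CM also carried a tetracycline-responsive type A Cbfb-Myh11 cDNA joined through F2A to mCherry, the fusion made by inversion of chromosome 16 in acute myeloid leukaemia, and the Control cells carried the same plasmid without the fusion. Doxycycline, which turns the construct on, was given at 1 µg/ml for 24 hours in the +Dox conditions and left out in the -Dox conditions. Each antibody therefore had 8 libraries, 2 in each of Control -Dox, Control +Dox, CM -Dox and CM +Dox. Both cell types came from selected clones grown from single cells, so a difference between CM and Control cells cannot be told apart from a difference between clones. Whether replicates were grown as separate cultures is not in the labels, and the spread behind each p-value may therefore be technical.

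BCL2 family proteins decide whether the outer mitochondrial membrane is opened, the step that commits a cell to apoptosis. Bcl2, Bcl2l1 (BCL-XL) and Mcl1 keep it closed, Bax forms the pores, and the BH3-only proteins Bcl2l11 (BIM), Bbc3 (PUMA) and Pmaip1 (NOXA) set off pore formation by binding the guardians. Trp53 encodes p53, which induces Bbc3, Pmaip1 and Bax after DNA damage, and Mdm2 encodes the ubiquitin ligase that keeps p53 low and is itself a p53 target. Myeloid progenitors and leukaemias depend on Mcl1 and Bcl2 in particular.

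The peak lists differed in length, from 8140 to 16163 RUNX1 peaks and from 16323 to 37698 CHD7 peaks, and the shortest RUNX1 lists were the CM +Dox pair. Read depth is unknown, and the RUNX1 lists were called at 2 thresholds, so a missing call means only that no peak passed the threshold of that list. Peaks within Cbfb and Myh11, the genes whose cDNA the construct holds, served to check which cells carry it. No Control library had a RUNX1 peak there, the CM -Dox pair had 3 and 1 in Cbfb and 1 and 0 in Myh11, and both CM +Dox libraries had 4 in Cbfb and 3 in Myh11. CHD7 peaks were less clear-cut, with 0 to 2 in Cbfb and 0 to 1 in Myh11 in Control libraries, against at least 5 and 3 in CM libraries. In 1 RUNX1 library labelled Control -Dox (replicate 1) the names of the peaks carry the tag +Dox. It was kept where its label puts it. Some results that turn on it are also given without it, and at others the library is only named. Replicates shared 75.8% to 88.2% of their RUNX1 sites around the 9 genes and 35.6% to 80.8% of their CHD7 sites, so single CHD7 calls are the less repeatable of the pair.

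RUNX1 sat at the start of 4 of the genes in every library. A site called in all 8 RUNX1 libraries overlapped a promoter of Mcl1, Mdm2, Bcl2l11 and Bbc3, which is 4 of the 8 genes with an entry among the RefSeq promoters of assembly GRCm38.p6 (250 bases before to 50 after each start). Over all 27025 genes with such an entry the share was 7.47%. The starts of Bax and Bcl2 had a peak of neither antibody in any library. The start of Trp53 had a CHD7 peak in 4 libraries and no RUNX1 peak, and 1 of the 3 starts of Bcl2l1 had RUNX1 in 5 libraries and CHD7 in 6. Pmaip1 had no peak of the 16 lists in its window, so it could not be tested, and counts of tested genes are over the other 8.

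The 250 bases before 1 RUNX1-covered start of each of these 4 genes are printed below, since RUNX1 peaks covered these regulatory stretches in every condition. Bbc3 has a further covered start that is not printed. Capitals mark the RUNX words TGTGGT and TGCGGT, searched on both strands, so that ACCACA and ACCGCA are their reverse complements. The sequences are from RefSeq, GRCm38.p6, written 5′ to 3′ on the strand of the gene. They are Mcl1 (plus strand, chr3:95658471-95658720), Mdm2 (minus strand, chr10:117710759-117711008), Bcl2l11 (plus strand, chr2:128125788-128126037) and Bbc3 (plus strand, chr7:16310011-16310260).
Mcl1: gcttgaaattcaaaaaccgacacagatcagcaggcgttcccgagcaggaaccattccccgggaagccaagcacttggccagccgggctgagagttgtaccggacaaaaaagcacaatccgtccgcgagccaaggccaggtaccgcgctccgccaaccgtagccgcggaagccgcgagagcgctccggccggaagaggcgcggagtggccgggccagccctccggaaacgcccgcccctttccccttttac
Mdm2: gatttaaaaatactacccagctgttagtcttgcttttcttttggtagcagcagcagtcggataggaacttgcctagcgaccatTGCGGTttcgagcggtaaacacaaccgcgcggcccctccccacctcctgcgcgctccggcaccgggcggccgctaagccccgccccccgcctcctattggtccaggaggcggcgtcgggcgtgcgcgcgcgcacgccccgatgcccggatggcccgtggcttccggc
Bcl2l11: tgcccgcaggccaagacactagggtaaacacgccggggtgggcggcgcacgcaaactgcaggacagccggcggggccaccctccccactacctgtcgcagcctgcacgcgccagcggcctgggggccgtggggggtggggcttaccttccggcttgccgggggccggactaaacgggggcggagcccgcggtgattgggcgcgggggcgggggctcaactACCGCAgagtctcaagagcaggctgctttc
Bbc3: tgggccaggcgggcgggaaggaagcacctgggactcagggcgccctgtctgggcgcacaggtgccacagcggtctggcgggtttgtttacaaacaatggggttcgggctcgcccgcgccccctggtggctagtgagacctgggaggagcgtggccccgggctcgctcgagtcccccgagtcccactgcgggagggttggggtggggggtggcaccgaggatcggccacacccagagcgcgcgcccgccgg
Mdm2 held 1 such word, starting at base 84 of its entry. Bcl2l11 held 2, starting at bases 221 and 295, the latter past the start and so not printed, and 1 more at base 40 of its downstream start. No promoter entry of Mcl1 or Bbc3 held either word, which says only that these letters are not in those windows. A RUNX word occurred in 22.4% of all 32851 promoter entries and in 28.7% of those that overlap a RUNX1 site of all 8 libraries.

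Most RUNX1 sites around these genes were still called once the fusion was induced. Of the 20 sites called in all 6 libraries without CM induction, 16 were called in both CM +Dox libraries, 3 in 1 of them, and 1 in neither. That is 5.0% called in neither, against a background of 27.9% over all 8531 such sites in the genome, and 80.0% called in both, against 56.7%. No RUNX1 site appeared in the CM +Dox pair while absent from the other 6, where the background is 0.835%. Position goes with this, and its part in the result was not tested: 10 of the 20 sites lay within 1 kb of a gene boundary, against 30.5% of all such sites. Genome-wide, 14.0% of the sites near a boundary and 34.1% of those farther away had no call in either CM +Dox library. Within these classes the 9 genes had 0 of 10 and 1 of 10. With the same number of peaks taken from every list, 1 of 9 sites was called in neither (11.1%, background 23.9%). In that setting 4 sites were called only in the CM +Dox pair, and the share of such sites over all RUNX1 sites was not counted. The counts thus depend on the length of the lists. The counts also turn on single libraries: leaving out CM +Dox replicate 1 gave 3 of 20 called in neither, and leaving out CM +Dox replicate 2, Control +Dox replicate 1, Control +Dox replicate 2 or CM -Dox replicate 1 gave 2.

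**Figure D1:**
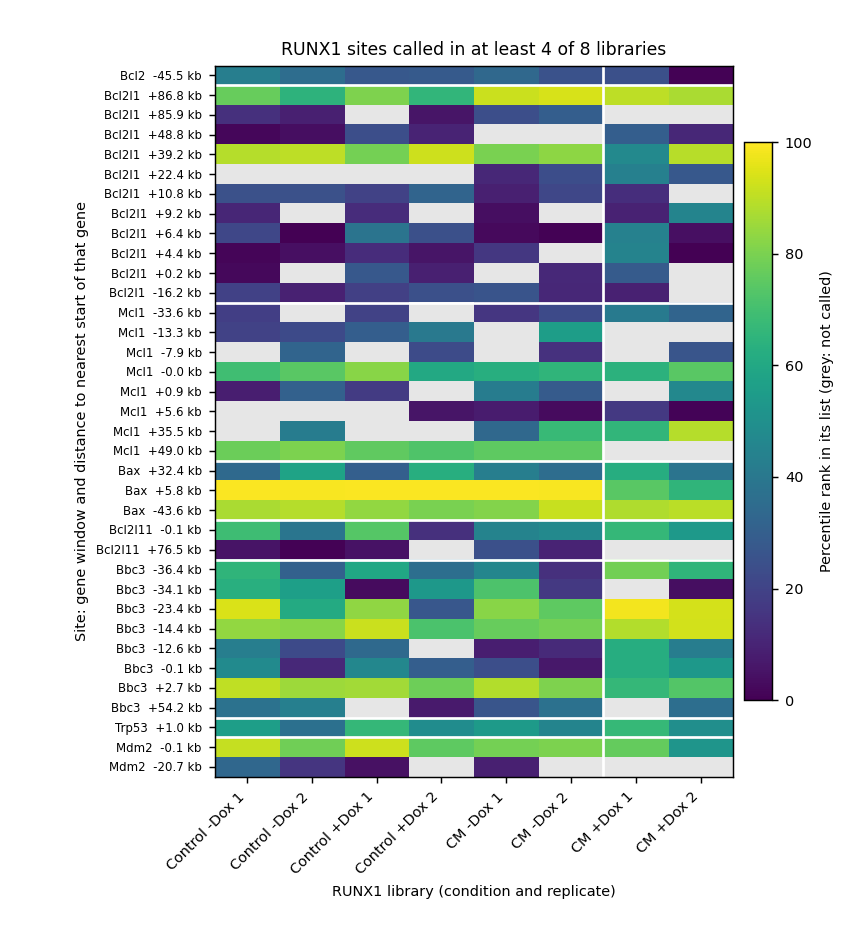
Percentile rank of the peak score within its own list (colour, 0 to 100, grey where no peak was called) for the 36 RUNX1 sites called in at least 4 of the 8 libraries, by gene window and distance in kb to the nearest start of that gene, with the 8 libraries as columns. The vertical line sets the CM +Dox pair apart; the Mcl1 site at +49.0 kb is grey in that pair alone, and the Bax site at +5.8 kb is near 100 in the other 6 columns.

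Among the genes that keep the membrane closed, Mcl1 had the clearest promoter site. The RUNX1 site at its start (chr3:95658442-95658910) ranked 69.3 and 74.5 in Control -Dox libraries, 82.1 and 60.5 in Control +Dox, 62.7 and 65.6 in CM -Dox and 64.4 and 74.6 in CM +Dox, where 100 is the highest score of a list. The groups overlapped. CHD7 was called at the same place in 4 libraries, 2 of them CM +Dox.

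The Mcl1 window also held the site called in all 6 libraries without CM induction and in neither with it (chr3:95707509-95707853). Its ranks were 77.7, 80.3, 75.6, 72.3, 75.3 and 75.3 in the 6 libraries, with little spread. It lay 44.3 kb from Mcl1, and the nearest gene was Adamtsl4, at 19.6 kb, so the rule by distance ties it to Mcl1 only through the 50 kb margin. With 5 kb margins, or with sites assigned to their nearest gene, none of the sites of the 9 genes was called in neither. CHD7 was not called there in any library. A further site toward Adamtsl4 (chr3:95693721-95694789) was called in both CM +Dox libraries (ranks 66.0 and 88.9), in both CM -Dox libraries (33.8 and 67.5) and in 1 of the 4 Control libraries (41.8).

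Bcl2l1 had the most sites of the 9 genes, 16 for RUNX1 and 41 for CHD7, most of them inside its 75.1 kb body. RUNX1 peaks in its window numbered 12, 8, 14, 11, 10 and 9 without CM induction and 16 and 8 with it, so the CM +Dox pair lay at either end of the range. Its strongest internal RUNX1 site (chr2:152788604-152789984, 39.2 kb downstream of the nearest start) had ranks of 79.1 to 92.4 in the 6 libraries and 47.0 and 89.1 in CM +Dox.

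At 2 places near Bcl2l1 the CM cells differed from Control cells with or without doxycycline. Inside the gene, the site chr2:152805688-152806387 was called in all 4 CM libraries (ranks 11.3, 23.7, 43.6 and 27.7) and in none of the 4 Control libraries, while CHD7 was called at that position in all 8 of its libraries. Toward Id1, a site 16.7 kb past the 3′ end (chr2:152741397-152742013) had ranks of 64.8 to 80.6 in Control cells, 91.9 and 93.9 in CM -Dox and 90.0 and 87.4 in CM +Dox. CM -Dox and CM +Dox cells, which are of the same clone, shared this pattern, and it was not tested. The share of all RUNX1 sites that separate CM from Control cells in this way was not counted. How common the pattern is between these clones is therefore not known here.

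Bcl2 had little RUNX1. Of 3 sites in its window, the site called in all 8 libraries (chr1:106759514-106760106) lay in Kdsr, 45.2 kb from Bcl2, with ranks of 25 to 42.8 without CM induction and 24.4 and 0.679 with it. No RUNX1 site inside the 176.0 kb body of Bcl2 was called in more than 1 library.

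CHD7 peaks around Bcl2 were more numerous in both CM +Dox libraries than in any other. They numbered 3 and 3 in Control -Dox libraries, 1 and 4 in Control +Dox, 2 and 5 in CM -Dox, and 9 and 8 in CM +Dox. The mean was 8.5 ± 0.707 (SD, n = 2) against 3.0 ± 1.41 (SD, n = 6), and a two-sided exact permutation test over 28 choices gave p = 0.0357, the smallest it can give. Adjusted over 17895 genes by the Benjamini-Hochberg method it was 0.845, so the difference did not pass. For any gene to pass, most of all tested genes would have to reach the smallest p. The adjusted p therefore cannot decide whether the counts at a single gene differ. Bcl2 and Bcl2l11 were the 2 of the 8 tested genes whose CM +Dox pair lay above all other libraries, against 4.66% of all genes, and none lay below (background 0.397%). For Bcl2, 1 position was shared by the pair alone, chr1:106549048-106549477 inside the gene, with ranks of 73.2 and 39.4. RUNX1 was called at that position in CM +Dox replicate 2 alone.

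Bcl2l11 showed the same CHD7 pattern from a lower base. CHD7 peaks numbered 1 in each Control library, 2 in each CM -Dox library, and 6 and 4 in CM +Dox, a mean of 5.0 ± 1.41 (SD, n = 2) against 1.33 ± 0.516 (SD, n = 6). The exact permutation test gave p = 0.0357 and an adjusted p of 0.845. The position shared only by the CM +Dox pair (chr2:128083682-128084093) lay 41.9 kb away inside Acoxl and had low ranks, 8.9 and 17.2. The CM +Dox CHD7 lists held 33462 and 31688 peaks and the lists without CM induction 16323 to 37698. Among the latter the counts around Bcl2 were higher in longer lists, from 1 in the shortest to 5 in the longest. Those around Bcl2l11 did not follow list length, with 1 in each Control list and 2 in each CM -Dox list. Control +Dox replicate 2, with 32448 peaks, had 4 CHD7 peaks around Bcl2 and 1 around Bcl2l11. CM -Dox replicate 2, the longest list, had 5 CHD7 peaks around Bcl2 and 2 around Bcl2l11, fewer than either CM +Dox library. With lists of equal length no CHD7 position was called only in the CM +Dox pair, and the mean difference in peaks was 0.667 at Bcl2 and 1.33 at Bcl2l11 in place of 5.5 and 3.67 (exact permutation p = 0.643 and 0.0714). Among peaks scoring at least their list's median it was 1.67 and 1.5 (exact permutation p = 0.25 and 0.0714). With 5 kb margins it was 4.33 and 1.83. With each peak given to its nearest gene it was 4.83 and 0.833 (exact permutation p = 0.0357 and 0.357).

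**Figure D2:**
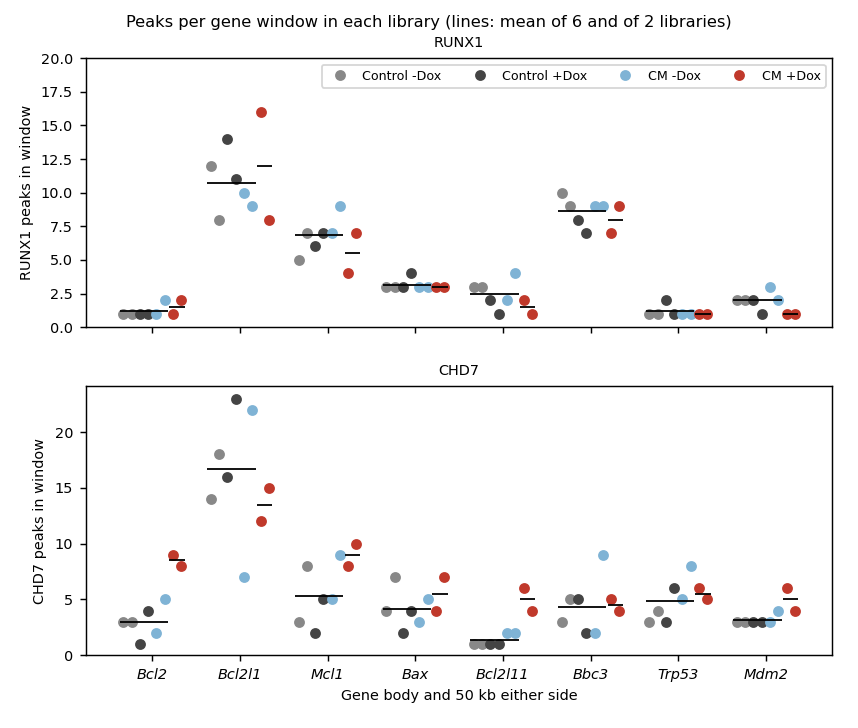
Number of peaks in the body of each gene and 50 kb either side, for RUNX1 (top) and CHD7 (bottom); each point is a library, coloured by condition, and the lines are the means of the 6 libraries without CM induction and of the 2 with it. The CM +Dox points for CHD7 stand above all others at Bcl2 (9 and 8) and Bcl2l11 (6 and 4), and overlap the others for RUNX1 at Bax, Bbc3 and Bcl2l1.

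Numbers of RUNX1 peaks per window, as deposited, separated none of the 8 tested genes. In 0 of the 8 did both CM +Dox libraries have fewer RUNX1 peaks than all 6 others, where the background is 19.8%, and in 0 did both have more, where it is 0.598%. No gene of the 14876 tested passed an adjusted p of 0.05 (background 0.0%, lowest adjusted p 0.213), although 2413 genes with fewer peaks and 83 with more, 16.8% in all, had an unadjusted p under 0.05 in the exact permutation test. None of the 8 genes was among them. With lists of equal length Bcl2l1 had 8.0 more RUNX1 peaks with CM induction in place of 1.33 (exact permutation p = 0.0357, adjusted p = 0.223). For CHD7 the corresponding unadjusted numbers were 33 fewer and 723 more, 4.22% in all and with Bcl2 and Bcl2l11 among them, again with none past the adjusted threshold (0.0%). Mdm2 came nearest among the 8 genes for RUNX1, with 2, 2, 2, 1, 3 and 2 peaks without CM induction and 1 and 1 with it (exact permutation p = 0.25, adjusted p = 0.617). Without Control +Dox replicate 2 its difference was -1.2 in place of -1.0 (exact permutation p = 0.0476). An exact permutation test of 2 libraries against 2 can give no p below 1 in 3, so such comparisons are given as values only. In Control cells the mean number of RUNX1 peaks without and with doxycycline was 3.0 and 1.5 at Bcl2l11, 9.5 and 7.5 at Bbc3, 10 and 12.5 at Bcl2l1, and 6.0 and 6.5 at Mcl1. In CM cells the same pairs were 3.0 and 1.5, 9.0 and 8.0, 9.5 and 12, and 8.0 and 5.5. At Mcl1 the means moved in opposite directions in the 2 kinds of cell. The Control libraries overlapped there, with 5 and 7 peaks without doxycycline and 6 and 7 with it. The 5 was in Control -Dox replicate 1, the library with the mismatched tag, and without that library the Control mean did not rise. At Bcl2, Bax, Trp53 and Mdm2 the means without and with doxycycline differed by 1.5 peaks or less.

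Because the lists differ in length, ranks were also taken among the 4833 RUNX1 sites that all 8 libraries call, so that each library was ranked over the same sites. In 7 of the 16 such sites of the 9 genes the CM +Dox pair lay outside the range of the other 6 libraries, 2 below and 5 above. The background is 46.0% in all, 22.0% below and 24.0% above, so the share around the 9 genes is near that of the genome. No site of the 4833 passed an adjusted p of 0.05 (0.0%), and 0.0935 is the lowest adjusted p that any of them reached. Leaving out CM +Dox replicate 2 raised the number to 13 of 18, with the background then at 65.6%.

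Bax held the largest of these differences. The site lies 0.303 kb past the 3′ end of the gene, between Bax and Ftl1, the ferritin light chain gene (chr7:45460850-45461392). In its own lists it ranked 99.6 and 99 in Control -Dox libraries, 99.6 and 99.4 in Control +Dox, 99.4 and 99.2 in CM -Dox, and 74.5 and 65.3 in CM +Dox. Without CM induction it was thus close to the top of every RUNX1 list, and in both CM +Dox libraries it was called at a lower rank.

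Over the sites common to all libraries the Bax site had a rank of 98.3 ± 0.705 (SD, n = 6) without CM induction and 62.1 and 40.5 with it, a difference of -47.0 (two-sided exact permutation p = 0.0357, adjusted over 4833 sites 0.0935). Among the highest-scoring part of each list, at or above its median score, the difference was -74.5. CHD7 was called there in 5 of the 6 libraries without CM induction and in 1 CM +Dox library. The number of RUNX1 peaks in the Bax window stayed between 3 and 4 in all 8 libraries, so the difference is in the rank of the site and not in the number of calls.

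The other sites of the Bax window did not share this. The site in Nucb1 (chr7:45510260-45510798) had common-set ranks of 61.3 to 77.5 without CM induction and 81.1 and 79.4 with it (exact permutation p = 0.107, adjusted p = 0.2). The site in Ruvbl2, a gene for an ATPase of chromatin complexes (chr7:45434153-45434912), ranged from 7.39 to 43.1 and had 47.5 and 15.6 in CM +Dox. CHD7 was among the top peaks of every list there, with ranks of 98.6 to 99.6 without CM induction and 99.4 in both CM +Dox libraries.

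Bbc3 was the gene with the most RUNX1 sites in all 8 libraries, 5 of 11, and all 5 separated by common-set rank: 4 were higher in the CM +Dox pair and 1 was lower. At the promoter site (chr7:16309939-16310376) the common-set ranks were 15.8, 4.48, 16.7, 16.5, 6.82 and 1.08 without CM induction and 47.4 and 27.4 with it. The mean difference was 27.2 (exact permutation p = 0.0357, adjusted p = 0.0935). CHD7 was not called there in any library.

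The 3 sites upstream of Bbc3 that all 8 libraries call were also higher in the CM +Dox pair. At chr7:16272806-16273619, in Inafm1, the ranks were 2.52 to 34.0 in the 6 libraries and 67.4 and 40.7 in CM +Dox, a difference of 34.1 with an exact permutation p of 0.0357. At chr7:16285463-16287004, in Ccdc9, they were 14.8 to 86.1 against 96.9 and 87.1, a difference of 39.8 with an exact permutation p of 0.107. The spread among the libraries without CM induction was wide at this site, and Control -Dox replicate 1, the library with the mismatched tag, was the highest of them. At chr7:16294549-16295837, 12.6 kb before the gene, they were 52.9 to 80.8 against 81.5 and 86.4, a difference of 22.1 with an exact permutation p of 0.0357. Upstream sites without a call in every library have no common-set rank. At chr7:16275320-16275700 list ranks were 2.82 to 72.0 in the 6 libraries. CM +Dox replicate 1 had no call there and replicate 2 ranked 3.78. The site chr7:16261187-16261485 was called in 3 libraries, none of them CM +Dox. At chr7:16296790-16297202 list ranks were 8.24 to 42.8 in 5 libraries without CM induction and 62.2 and 42.3 in CM +Dox.

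Inside the gene the order was the opposite. The site 2.69 kb downstream of the nearest start (chr7:16312777-16313473) had ranks of 56.6 to 77.6 in the 6 libraries and 52.2 and 51.2 in CM +Dox, a difference of -16.4 with an exact permutation p of 0.0357. None of the 5 passed after adjustment. A further position at the upstream start of Bbc3 (chr7:16309325-16309640) was called in both CM +Dox libraries, with list ranks of 64.6 and 47.3, and otherwise only in Control -Dox replicate 1 (25.7). Without that library it counts as a site called only in the CM +Dox pair, the sole such RUNX1 site of the 9 genes.

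**Figure D3:**
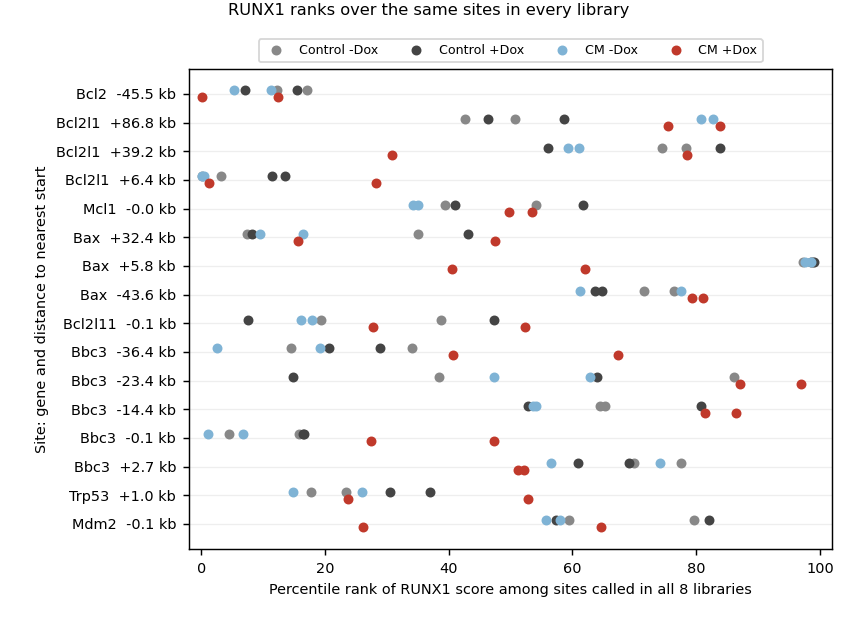
Percentile rank (x axis, 0 to 100) of the RUNX1 score among the 4833 sites called in all 8 libraries, for the 16 of these in the windows of the genes, labelled by gene and distance in kb to its nearest start; each point is a library, coloured by condition. The CM +Dox points at the Bax site (+5.8 kb) lie at 62.1 and 40.5, below a tight group near 98.3, and those of 4 Bbc3 sites lie above the other 6 libraries.

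The promoter of Bcl2l11 kept its RUNX1 call in all 8 libraries with a wide spread. List ranks at chr2:128125613-128126184 were 68.8 and 39.0 in Control -Dox libraries, 73.8 and 13.8 in Control +Dox, 44.7 and 46.9 in CM -Dox and 66.6 and 53.8 in CM +Dox. Replicates of both Control conditions lay far apart, and the groups overlapped. CHD7 was called at this site in 1 library, a CM +Dox library, so the promoter of Bcl2l11 had RUNX1 in every library and nearly no CHD7.

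In the p53 axis, RUNX1 and CHD7 met at both genes. At Trp53 a RUNX1 site lay 1.04 kb downstream of the start (chr11:69581095-69581696), with list ranks of 56.1, 36.9, 66.7, 48.6, 54.6 and 45.2 without CM induction and 67.1 and 49.3 with it. The groups overlapped. CHD7 was called over the same position in all 8 libraries and had a further site that begins upstream and reaches the start of the gene (chr11:69579329-69580539), with ranks of 76.3 to 97.1 in the 6 libraries and 94.7 and 96.2 in CM +Dox. No RUNX1 library called that site. Of its peaks, those of 4 libraries extended into the promoter entry.

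At Mdm2 both proteins covered the promoter in all 8 of their libraries. RUNX1 list ranks at chr10:117710561-117711116 were 91.3 and 78.3 in Control -Dox libraries, 92.4 and 75.2 in Control +Dox, 79.0 and 80.4 in CM -Dox and 76.5 and 52.0 in CM +Dox. By common-set rank the mean was 65.4 ± 12.1 (SD, n = 6) without CM induction and 64.7 and 26.2 with it, so the lower mean rests on CM +Dox replicate 2 (exact permutation p = 0.214, adjusted p = 0.326). CHD7 had ranks there of 21.4 to 90.5 and of 41.6 and 71.5. A position 20.6 kb beyond Mdm2, toward Slc35e3 (chr10:117731333-117731672), had RUNX1 in 4 libraries, none of them CM +Dox, and CHD7 in all 8.

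Few CHD7 sites were called throughout, around these genes as over the genome. Of the 133 sites, 13 (9.77%) had a call in each of the 6 libraries without CM induction, against 6.78% of all CHD7 sites. The same 13 were called in both CM +Dox libraries, as were 84.0% of all such sites. None was called in neither, where the background is 3.65%. The 2 positions called only in the CM +Dox pair, at Bcl2 and Bcl2l11, are 1.5% of the sites against a background of 1.39%. Another 64 sites (48.1%) had a call in a single library, as had 59.5% of all CHD7 sites. Without CM -Dox replicate 1, 1 of 16 sites was called in neither CM +Dox library (6.25%, background 5.24%). Positions called only with CM induction numbered 10 without CM +Dox replicate 1 and 24 without CM +Dox replicate 2. The share of such positions over all CHD7 sites was not counted for these settings.

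By common-set rank the CM +Dox pair was outside the other 6 libraries at 1 of the 13 CHD7 sites, against a background of 12.6% (6.37% below, 6.22% above). It was the site in Tpx2 beyond the start of Bcl2l1 (chr2:152847286-152848809), with ranks of 20.9 to 77.9 and of 17.5 and 5.87 (exact permutation p = 0.0714, adjusted p = 0.557). None of the 4852 sites tested passed (0.0%).

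**Figure D4:**
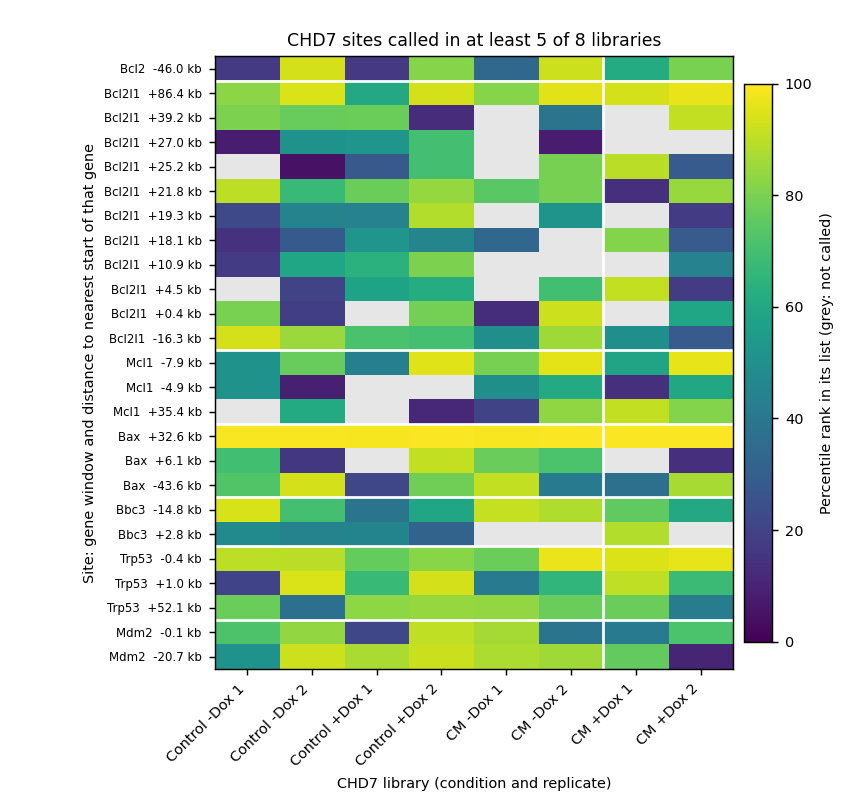
Percentile rank of the CHD7 peak score within its own list (colour, 0 to 100, grey where no peak was called) for the 25 sites called in at least 5 of the 8 libraries, by gene window and distance in kb to the nearest start, with the 8 libraries as columns. The row of the Bax window at +32.6 kb is at 98.6 or above in every column, and no site of Bcl2l11 reached 5 libraries.

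CHD7 shared most of the constant RUNX1 sites. Of the 16 RUNX1 sites called in all 8 libraries, 10 to 13 (62.5% to 81.2%) had a CHD7 peak in a given CHD7 library, against 53.2% to 75.4% of all 4833 such sites. In CM +Dox the numbers were 10 and 11. The RUNX1 sites at the promoters of Bbc3 and Bcl2l11 were among those with little or no CHD7, and the promoter site of Mdm2 and the site downstream of the Trp53 start had it in all 8 libraries.

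Around the other 57 genes of these pathways a larger share of RUNX1 sites went uncalled. Of their 68 sites called in all 6 libraries without CM induction, 23 (33.8%) had no call in either CM +Dox library, 14 had a call in 1 and 31 in both. The background of 27.9% lies between this share and the 5.0% of the 9 genes, and the difference between the gene lists was not tested. In 12 of the 57 genes both CM +Dox libraries had fewer RUNX1 peaks than all others, and in none more, where the background is 19.8% fewer and 0.598% more. By this count the 57 genes are near the background. Among p53 target genes 9 of 23 sites were called in neither, among BH3-only genes 4 of 14, among p53 regulators 4 of 14, among caspases, their inhibitors and the apoptosome 4 of 13, and among the effectors Bak1 and Bok 2 of 3. The other anti-apoptotic genes had no site in all 6 libraries, and Trp73 kept its only such site.

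Perp, a p53 target encoding a membrane protein of cell junctions, had 4 RUNX1 peaks in each of the 6 libraries without CM induction and 1 in each CM +Dox library, and 3 of its 4 sites were called in neither. Birc2, which encodes the ubiquitin ligase cIAP1, had 4, 3, 4, 4, 3 and 4 peaks and then none, with all 3 of its constant sites called in neither. Trp53inp1, a p53-induced stress protein, had 4, 3, 4, 3, 4 and 3 peaks, and 1 and 0 in CM +Dox. Each of these 3 genes had an exact permutation p of 0.0357 and an adjusted p of 0.213, so none passed.

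Sites called in neither also occurred at Bid (2), which links caspase 8 to mitochondria, at Bmf and Hrk, both BH3-only, at Bak1 and Bok, and at the kinases Atr, Chek2 and Hipk2. They occurred at Kat5, at Casp8, at Sesn2 (2), and at Phlda3, Pidd1 and Sfn. RUNX1 positions called only in the CM +Dox pair were found at Bmf and Pidd1. CHD7 positions of that kind were found at Hipk2, Fas and Zmat3 among others. These were 2 of 196 RUNX1 sites of the 57 genes (background 0.835%) and 4 of their 553 CHD7 sites (background 1.39%). Fas, which encodes a death receptor induced by p53, had 0, 1, 0, 2, 3 and 4 CHD7 peaks without CM induction and 7 and 7 with it (exact permutation p = 0.0357, adjusted p = 0.845). It was the only one of the 57 genes whose CM +Dox pair lay above all other CHD7 libraries, where the background is 4.66% of all genes. By this count the 57 genes do not exceed the background.

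By the mean rank of the best RUNX1 peak in the window over 8 libraries, the leading genes were Bid (94.2) and Bad (70.0) among the BH3-only genes, Bak1 (81.4) and Bok (51.4) among the effectors, and Bcl2l2 (32.0) and Bcl2a1b (21.6) among the anti-apoptotic ones. They were Atr (89.2) and Kat5 (85.2) among p53 regulators, Trp73 (64.2) in the p53 family, Perp (89.7) and Sesn2 (84.6) among p53 targets, and Birc2 (70.1) was among the leading genes of the apoptosome and caspase list. Perp and Birc2, both among these leading genes, were the genes with 3 sites called in neither.

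**Figure D5:**
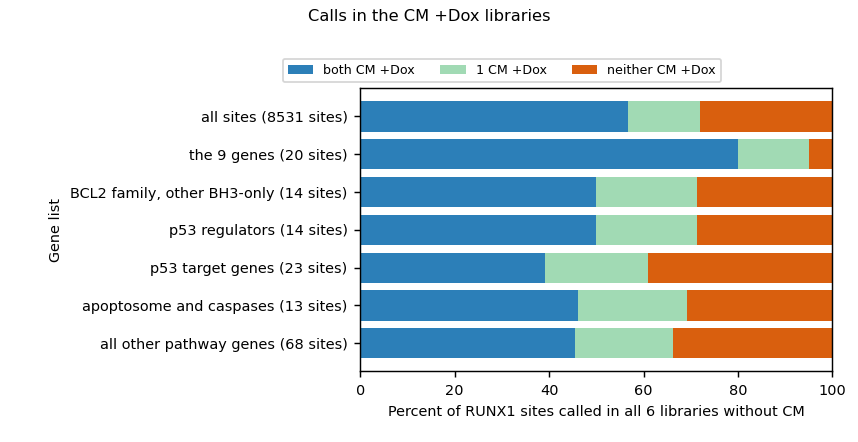
Share of the RUNX1 sites with a call in each of the 6 libraries without CM induction (x axis, percent) that were called in both, 1 or neither of the CM +Dox libraries, for all sites, the 9 genes and the other pathway lists with at least 10 such sites. The 9 genes have 80.0% called in both and 5.0% in neither, all sites 56.7% and 27.9%, and p53 target genes have 39.1% in neither.

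Among these 57 genes, the gene whose best RUNX1 rank was most like that of a member was found by the mean absolute difference in rank over the 8 RUNX1 libraries. It was Bid for Bax (4.47 percentile points), Atr for Bcl2l1 (5.17), Mdm4 for Mcl1 (6.72), Sesn2 for Bbc3 (6.86), Pidd1 for Trp53 (7.11), Pidd1 for Bcl2l11 (9.25) and Cdkn1a for Bcl2 (9.48). In order of the mean best rank without CM induction the genes were Bax (99.4), Bcl2l1 (89.6), Bbc3 (86.4), Mdm2 (82.8), Mcl1 (77.2), Trp53 (51.4), Bcl2l11 (50.3) and Bcl2 (34.5). In CM +Dox the means were 88.8, 89.5, 95.8, 64.3, 77.5, 58.2, 60.2 and 24.6 in the same order of genes. The best peak was not always at the same site. At Bax it was next to the gene without CM induction and in Nucb1 in CM +Dox (88.2 and 89.5). At Mcl1 the CM +Dox mean came from the site toward Adamtsl4 (66.0 and 88.9). At Bbc3 it came from a site in Ccdc9, 21.4 kb from Bbc3 (98.2 and 93.5). The site inside Bbc3 at chr7:16312777-16313473 had 66.6 and 73.1. In CM +Dox the Bbc3 window stood first and that of Mdm2 behind that of Mcl1. List lengths differ between these libraries, so the order across them is a description only.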

How the data were processed

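RUNX1 and CHD7 ChIP-seq peaks of 416B cells were read from 16 peak lists, 1 per library; 1 IgG sample was not analysed here. Per the submitters' processing notes, reads were processed with Bowtie2 2.0.6 and MACS2 2.0.10 on mm10; for read filters, the background library and depth, the sources used here give nothing. The authors deposited, for each peak, a score that is the −log10 of its p-value; the lowest scores match the thresholds in the peak names (1e-09 in 5 RUNX1 lists, 1e-07 in 3, 0.01 in the CHD7 lists). Scores are the authors' own and were compared only within their own list.

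Peaks were merged into sites, assigned by RefSeq gene positions (GRCm38.p6, without exons) and compared by two-sided exact permutation of 2 CM +Dox against 6 libraries, with Benjamini-Hochberg adjustment over all genes or sites (Python 3.11.15, numpy 2.4.6, pandas 2.3.3, scipy 1.17.1); the procedure was tested on simulated data. Ranks over commonly called sites and the split by gene boundary were chosen after seeing the data. The members and gene lists were chosen with earlier results of these data known.

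Sites named in the text are those called in all 8 libraries or only with or without CM induction, plus up to 2 per gene by mean rank; other pathway genes are named for such sites or as the 2 per list with the highest mean RUNX1 rank. Some of these genes are not reported here. Genes named as examples among these were chosen after their values were seen. Alternatives were 5 kb windows, the nearest gene, stricter or common scores, equal list length, a stricter overlap, the replicate number as a block, and leaving out each library. Same-numbered replicates were not paired by the labels. Without a genome, sequences of peaks away from promoters were not used here.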

Additional observations from a re-analysis of the deposited data

Results flagged for a closer look

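At the RUNX1 site in Nucb1, within the Bax window (starting at 45510260 on chromosome 7), doxycycline went with opposite differences in the 2 kinds of cell. The common-set ranks were 71.5 and 76.4 in Control -Dox and 64.8 and 63.6 in Control +Dox, but 61.3 and 77.5 in CM -Dox and 81.1 and 79.4 in CM +Dox. The 2 doxycycline effects differed by 20.6 percentile points. The difference was not tested, since an exact permutation test of 2 libraries against 2 can give no p below 1 in 3. The site was picked because libraries with and without doxycycline did not overlap there in either kind of cell. How many of all RUNX1 sites show such a pattern was not counted. Control -Dox replicate 1 carries the mismatched peak tag, and the difference without that library was not computed.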

How the results depend on the processing

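No gene passed an adjusted p of 0.05 for either antibody under any alternative. This says nothing of stability where no gene could pass: with the replicate number as a block (0 genes passed) the smallest exact p is 0.0625, and with a CM +Dox library left out it is 0.143. With 2 against 6 libraries, most tested genes would have to reach the smallest exact permutation p of 0.0357 for any to pass. Bcl2 and Bcl2l11, at an unadjusted exact permutation p of 0.0357 for CHD7, had 0.0625 with the block. Replicate numbers do not pair the samples, since deviations of same-numbered libraries correlated between -0.00675 and 0.287 for RUNX1 and between -0.141 and 0.493 for CHD7. RUNX1 sites called in neither CM +Dox library numbered 0 with 5 kb windows or by nearest gene, 2 with an overlap of at least 50% of the shorter interval, and 1 to 3 when a library was left out, against 1. With a library left out, the share called in neither over all RUNX1 sites was 27.9% to 40.2%. RUNX1 sites called only in the CM +Dox pair numbered 1 at or above the median score, 4 with equal list length and 0 to 2 with a library left out, against 0. For CHD7, sites called in neither numbered 1 with equal list length and 0 to 1 with a library left out, against 0. CHD7 sites called only in the pair numbered 1 with 5 kb windows, by nearest gene or with the stricter overlap, 0 at or above the median score or with equal list length, and 2 to 24 with a library left out, against 2. For neither antibody was the share of sites called only in the pair counted over all sites under the alternatives. Some mean differences in peaks per window (CM +Dox minus the others) changed sign. None of these passed the adjusted threshold, which cannot decide whether counts at a single gene differ. Their lowest unadjusted exact permutation p was 0.0714, for RUNX1 at Bbc3 at or above the median score. With equal list length the exact permutation p for RUNX1 was 0.107 at Bbc3 and 0.143 at Mcl1. For RUNX1 the reversed differences were 0.167 at Bcl2l11 and 0.667 at Bbc3 with 5 kb windows and 0.667 at Bbc3 by nearest gene. At or above the median score they were -0.5 at Bcl2l1, 0.167 at Bax, 0.5 at Bcl2l11 and 2.17 at Bbc3. With equal list length they were 1.83 at Mcl1, 0.5 at Bax, 0.833 at Bcl2l11, 2.67 at Bbc3 and 0.33 at Trp53. For CHD7 they were -0.167 at Trp53 with 5 kb windows and -0.167 at Bax by nearest gene, -0.33 at both at or above the median score, and -1.0 at Bax and Bbc3, -1.17 at Trp53 and -0.167 at Mdm2 with equal list length. With a library left out, RUNX1 ran from -0.167 to 0.833 at Bcl2, -2.67 to 5.33 at Bcl2l1, -2.83 to 0.167 at Mcl1 and -1.67 to 0.33 at Bbc3, and CHD7 from -0.167 to 2.83 at Bax and -0.33 to 1.1 at Bbc3. Over all genes, those whose CM +Dox pair lay apart numbered 966 fewer and 1446 more for RUNX1 with equal list length, against 2944 and 89, and 449 and 368 for CHD7, against 71 and 834. The cause of these changes was not tested beyond the construction of each alternative. Read depth is unknown, so a missing call cannot be set against a detection limit.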
